A study of Mus musculus with 12 samples.

Results

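The 41 genes described here encode proteins that mend damaged DNA or that halt the cell cycle while it is mended. They were chosen by symbol from a list of repair and checkpoint genes. No measured value entered the rule, though earlier results of these data were known. All 41 were found among the 43430 genes of the table. By role they comprise 10 genes of homologous recombination, 7 of the Fanconi anaemia pathway, 4 of break sensing and end resection, 4 of mismatch repair, 6 of base excision and single-strand break repair, 4 of end joining, and 6 of checkpoint signalling and fork protection. The RNA came from alveolar macrophages, the resident phagocytes of the airspaces, in a mouse lung transplant model. Polyadenylated RNA was sequenced from 4 naive libraries, 4 libraries taken 2 h after reperfusion (the return of blood flow) and 4 taken 24 h after it. All 12 libraries carry the genotype label Cx3cr1gfp/+B6, which names a green fluorescent protein allele of the chemokine receptor Cx3cr1, and come from male mice aged 14 weeks. The labels do not say whether that genotype is the donor's or the recipient's, and Allo appears without explanation in the titles of the 2 h and 24 h libraries. Whether the libraries of 1 group come from separate mice is not stated, and p-values therefore measure the spread from library to library, which may be technical.

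Homologous recombination copies the intact sister chromatid to restore a broken one and works after DNA has been replicated, with Brca1, Bard1, Brca2 and Palb2 loading the recombinase onto resected ends. The Fanconi pathway frees replication forks stopped by crosslinks, mismatch repair corrects the errors of DNA polymerases, base excision repair replaces single damaged bases, and end joining seals broken ends in any phase of the cell cycle. The kinases Atm and Atr sense breaks and stalled forks and act through Chek2 and Chek1. Adult alveolar macrophages are long-lived cells that maintain their numbers largely by dividing in place.

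Library totals were 6112586 to 8796071 reads in naive, 7242824 to 10347265 at 2 h and 9129420 to 11997945 at 24 h. A single member had 7 to 597 reads per library in naive, 11 to 624 at 2 h and 67 to 1359 at 24 h. The 12 defining markers of alveolar macrophages summed to 11200 to 11600 RPKM (read counts scaled to gene length and to library size) in naive, 7530 to 8830 at 2 h and 9170 to 11100 at 24 h, and none was at 0. The 10 lymphocyte markers summed to 10.8 to 18.5, 3.13 to 8.98 and 1.95 to 3.59 RPKM in the same order, the 8 neutrophil markers to 26.4 to 34.9, 28.1 to 40.5 and 41.7 to 47.7 RPKM, and the 8 epithelial markers to 56.4 to 61.0, 47.6 to 67.6 and 23.2 to 33.7 RPKM. The marker lists of monocytes (without Chil3), interstitial macrophages, dendritic cells, endothelium and stroma, and red cells and platelets each summed to at most 10.3 RPKM in any library, and no marker of any list was at 0 in all libraries. Most of the alveolar macrophage sum was Chil3. With Chil3 the monocyte list came to 7470 to 8120 RPKM in naive, and without it to 2.48 to 3.56. In the filtered test described below, 4 of the 12 alveolar macrophage markers fell and 1 rose at 2 h, where 22.0% and 14.7% of all genes did. At 24 h 7 fell and 2 rose, where 20.6% and 25.3% of all genes did. The part of cells other than alveolar macrophages in the results below was not tested. In bulk RNA fewer cells of a type cannot be told apart from less RNA per cell. The 2 h libraries also held 38 genes with a mean of at least 2 RPKM that were at 5% of that level or less in naive and, in the median, at 0.0453 of it at 24 h. None of the 38 was a member, but the time after reperfusion cannot be told apart from another difference between the 2 h libraries and the rest.

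At 24 h, 36 of the 41 genes were higher than in naive in every library, and the same number passed the test in a fit without a filter on low values. None was lower. Across the 24505 genes of that unfiltered fit 11.7% passed in the higher and 9.59% in the lower direction, and 13.5% were higher in every library. In the median of all 41 members the mean RPKM at 24 h was 2.39 times that in naive, against 1.0 in the genes of the filtered test described below. It was 1.69 over the 25 members that reached 1 RPKM in at least 4 of the naive and 2 h libraries. Of the 41 ratios, 23 were at least 2, 12 were at least 4 and 10 were under 1.5, while 5.77% of the genes of the filtered test reached 2. The ratios differed by role. The median was 3.86 in homologous recombination (1.25 to 5.8), 3.15 in the Fanconi pathway (1.69 to 5.64) and 3.29 in checkpoint signalling (1.19 to 5.18). It was 2.11 in mismatch repair (1.68 to 5.71), 1.59 in base excision (1.17 to 4.29), 1.48 in break sensing and resection (1.38 to 1.57) and 1.23 in end joining (1.09 to 1.82). Every gene of break sensing and of end joining was below 2-fold, and each of the other roles held genes on both sides of it, so the ranges overlapped.

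**Figure D1:**
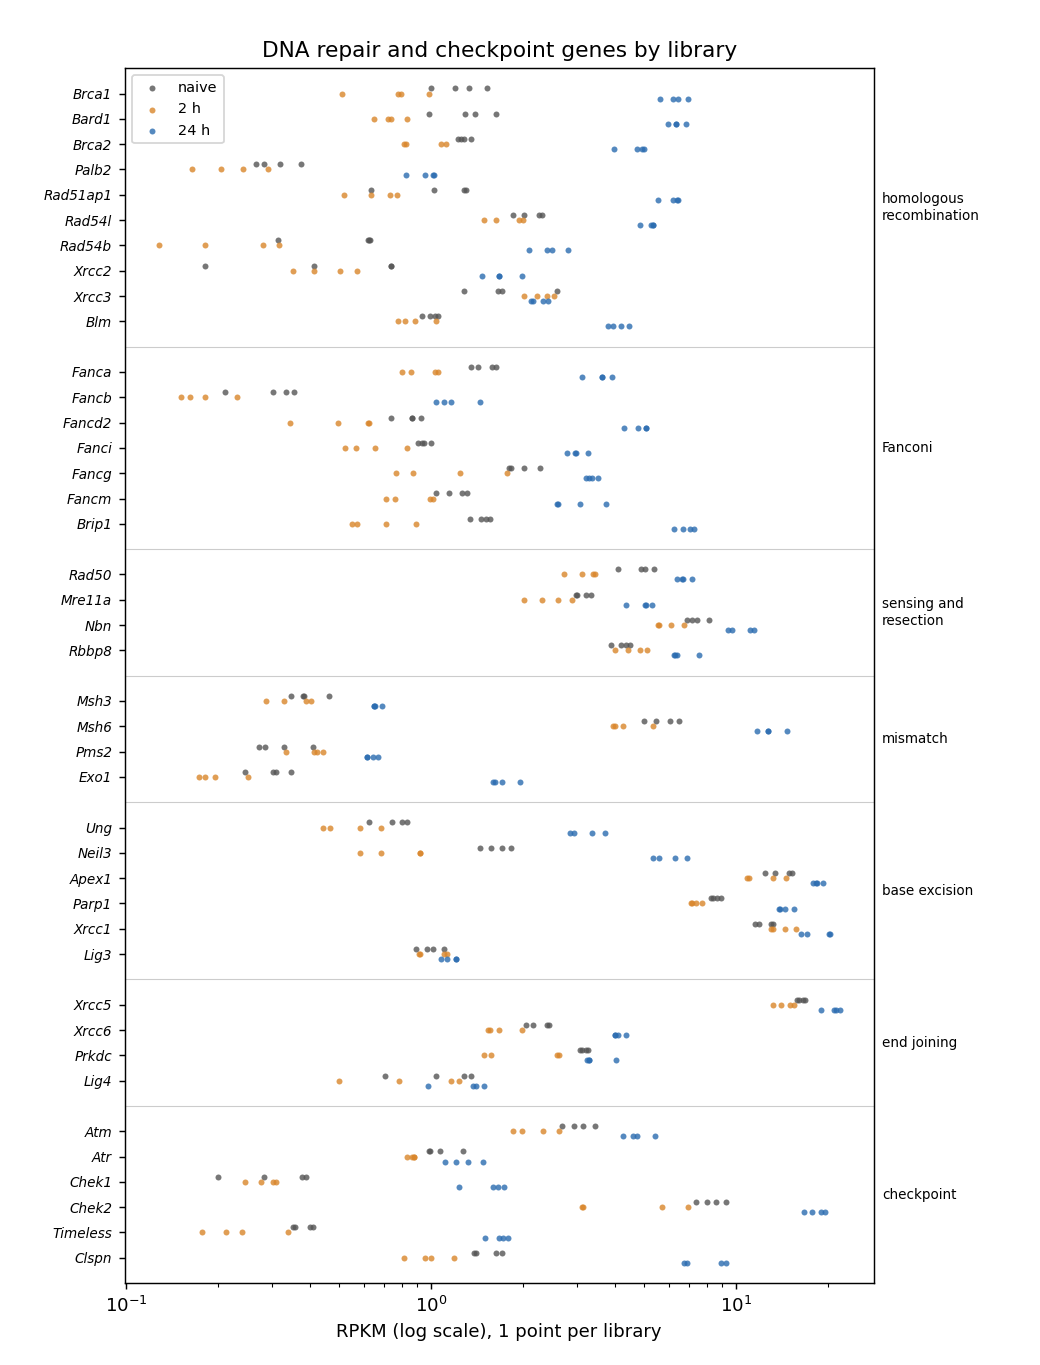
RPKM of each of the 41 genes on a log axis, 1 point per library, with naive in grey, 2 h in orange and 24 h in blue, and genes grouped by role. The 24 h points stand to the right of all naive points in 36 genes, and the median ratio is largest in homologous recombination, the checkpoint group and the Fanconi pathway.

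Single genes were tested with limma on log2(RPKM + 1) over the 11419 genes that reached 1 RPKM in at least 4 libraries, with p-values adjusted by the Benjamini-Hochberg method over those genes. Log2 fold changes on this scale understate the change of low genes, so ratios of mean RPKM are printed beside them. The filter was passed by 25 members without the 24 h libraries and by 13 more only when the 24 h libraries were counted. Whether the latter were tested thus depended on their 24 h values, which favours genes higher at 24 h. These 13 are Bard1, Rad51ap1, Rad54b, Xrcc2, Blm, Fancb, Fancd2, Fanci, Exo1, Ung, Atr, Chek1 and Timeless, and their changes to 24 h are given below from the unfiltered fit. The remaining 3, Palb2, Msh3 and Pms2, stayed below it. In the filtered fit 33 of 38 members rose at 24 h and 0 fell, where 25.3% of all genes rose and 45.9% passed in either direction. Among the 25 that passed without the 24 h libraries, 21 rose. The RPKM of different genes was not compared, because the gene length behind the deposited values was 0.37 to 5.0 times the exon length of the annotation in these 41 genes. Nothing states whether the libraries keep the strand, so reads of overlapping genes on opposite strands cannot be told apart.

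Promoter sequence is shown here for the genes whose start region holds letters of the E2F class, since E2F factors are known regulators of genes used in DNA replication. Windows of 250 bases before to 50 bases after the annotated start were found in RefSeq (GRCm38.p6) for 33 of the 41 genes, and not for Exo1, Fancd2, Nbn, Prkdc, Rad50, Rad54b, Rbbp8 and Xrcc2. The E2F letters searched on both strands were TTTCCCGC, TTTCGCGC, TTTGCCGC and TTTGGCGC. They occurred in 8 of 33 genes (24.2%) and, counted the same way with any window of a gene, in 704 of 27025 genes (2.6%). These 27025 are all genes with a RefSeq window, whether or not they are expressed in these cells. Each stretch below runs 5′ to 3′ on the strand of the gene, with the letters that match, read on either strand, in capitals.
Bard1: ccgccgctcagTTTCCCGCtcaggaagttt
Brca2: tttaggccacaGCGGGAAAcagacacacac
Fancg: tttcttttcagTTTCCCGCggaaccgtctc
Msh3: gccgtcaagTTTGGCGCGAAAtcgcagccc
Msh6: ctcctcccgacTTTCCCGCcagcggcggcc
Xrcc6: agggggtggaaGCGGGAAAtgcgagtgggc
Chek2: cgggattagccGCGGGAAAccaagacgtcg
Clspn: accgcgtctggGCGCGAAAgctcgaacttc
These lie at chr1:71103163-71103192 on the minus strand (Bard1), chr5:150522442-150522471 on the plus strand (Brca2), chr4:43010335-43010364 on the minus strand (Fancg) and chr13:92355185-92355214 on the minus strand (Msh3). The other four lie on the plus strand, at chr17:87975054-87975083 (Msh6), chr15:82016312-82016341 (Xrcc6), chr5:110839820-110839849 (Chek2) and chr4:126556990-126557019 (Clspn). In Msh3 the match was to overlapping copies of the letters on both strands. They were in 5 of 19 genes at least 2-fold higher at 24 h (26.3%) and in 3 of 14 under 2-fold (21.4%). A match is a description of the letters in the window and not of a factor bound there.

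The CCAAT box, the letters CCAAT bound by the factor NF-Y, was more frequent than the E2F letters. It occurred on either strand in 20 of 33 genes (60.6%) and in 41.1% of all genes with a window. Among genes at least 2-fold higher it was in 12 of 19 (63.2%), and in 8 of 14 below that (57.1%). Counted over both strands the window of Xrcc3, which did not pass at 24 h, held 6 copies, and those of Brip1 and Pms2 held 3. Brip1 is shown because its 3 copies stand within the 110 bases before its start, read on the gene's strand as ATTGG (chr11:86201194-86201303, minus strand, capitals mark the 3 copies).
Brip1: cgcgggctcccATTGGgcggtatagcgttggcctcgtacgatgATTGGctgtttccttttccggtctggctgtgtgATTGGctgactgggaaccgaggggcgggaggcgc
The CHR letters TTTGAA or TTCGAA, which mark genes of the late cell cycle, were in 4 of 33 genes (12.1%) and in 21.7% of all genes with a window.

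Of the 10 homologous recombination genes 9 rose at 24 h by the unfiltered test. Brca1 (chr11:101488764-101551955, minus strand), the ubiquitin ligase that starts repair at resected breaks, measured 1.52, 1.2, 1.33 and 1.0 RPKM in the naive libraries, 0.799, 0.509, 0.776 and 0.985 at 2 h, and 5.61, 6.92, 6.22 and 6.42 at 24 h. Every 24 h library stood above every naive one, and every 2 h library below. The naive mean was 1.26 ± 0.219 RPKM and the 24 h mean 6.29 ± 0.541 RPKM (SD, n = 4 libraries in either), a 4.98-fold rise (log2 fold change 1.69 ± 0.10, SE, limma adjusted p = 1.2e-07).
Bard1 (chr1:71027498-71103146, minus strand), the obligate partner of Brca1 in the ligase, measured 1.39, 1.29, 1.63 and 0.983 RPKM in naive, 0.722, 0.649, 0.74 and 0.83 at 2 h, and 6.33, 5.98, 6.34 and 6.83 at 24 h. The 3 groups did not overlap, with 2 h lowest and 24 h highest. The rise at 24 h was 4.82-fold (log2 fold change 1.67 ± 0.08, adjusted p = 3.81e-07). Blm (chr7:80454733-80535119, minus strand), the helicase that takes apart recombination intermediates, measured 1.03, 1.05, 0.988 and 0.933 RPKM in naive, 0.822, 0.776, 0.885 and 1.04 at 2 h, and 3.94, 4.19, 4.44 and 3.8 at 24 h. Its naive and 2 h libraries overlapped and its 24 h libraries stood apart, 4.08-fold higher (log2 fold change 1.35 ± 0.07, adjusted p = 3.25e-07).

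Rad51ap1, an accessory factor that aids strand invasion, had the widest ratio of the 41 genes. It went from 0.633 to 1.3 RPKM in naive to 5.55 to 6.42 at 24 h (5.8-fold, adjusted p = 1.13e-06). Rad54b and Rad54l, motor proteins that remodel the DNA joined by the recombinase, rose 4.45-fold and 2.47-fold. Brca2, which delivers the recombinase, rose 3.63-fold from 1.22 to 1.35 RPKM to 3.96 to 4.97. Xrcc2, a recombinase paralogue, rose 3.29-fold, from as few as 7 reads in a naive library to 85 to 127 reads at 24 h. Palb2, the bridge between Brca1 and Brca2, was below the filter, and its range moved from 0.267 to 0.375 RPKM to 0.824 to 1.02. An exact two-sided permutation test gave p = 0.0286 for Palb2, the smallest that 4 against 4 libraries allow (adjusted p = 0.0429 over 9 tests of the 3 untested genes).

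Xrcc3, another recombinase paralogue, was the exception among these 10 genes. It measured 2.58, 1.28, 1.66 and 1.7 RPKM in naive, 2.52, 2.39, 2.23 and 2.01 at 2 h, and 2.16, 2.13, 2.42 and 2.33 at 24 h. Naive library 1 was above all other libraries and the remaining naive libraries were below all of them, so the groups overlapped. The log2 fold change at 24 h was 0.24 ± 0.12 (adjusted p = 0.116). Without naive library 1 it was 0.36 (adjusted p = 0.00561), which passes. The gene body of Xrcc3 overlaps that of Klc1 on the other strand, which averaged 9.24 RPKM over all libraries.

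All 7 Fanconi genes were higher at 24 h than in naive without overlap. Brip1 (chr11:86058138-86201193, minus strand), the helicase that binds Brca1, measured 1.46, 1.51, 1.56 and 1.34 RPKM in naive, 0.569, 0.709, 0.55 and 0.893 at 2 h, and 6.27, 7.07, 6.67 and 7.24 at 24 h. It was lowest at 2 h and highest at 24 h with no overlap among the 3 groups. The rise was 4.64-fold (log2 fold change 1.66 ± 0.07, SE, limma adjusted p = 2.66e-08).
Fancd2 (chr6:113531682-113597017, plus strand), the subunit of the clamp whose ubiquitin mark switches the pathway on, measured 0.927, 0.736, 0.867 and 0.864 RPKM in naive, 0.622, 0.493, 0.345 and 0.627 at 2 h, and 4.76, 5.04, 5.04 and 4.3 at 24 h. This was 5.64-fold higher at 24 h (log2 fold change 1.64 ± 0.08, adjusted p = 3.25e-07). Fanci (chr7:79391929-79450264, plus strand), its partner in the clamp, measured 0.936, 1.0, 0.905 and 0.949 RPKM in naive, 0.522, 0.566, 0.656 and 0.831 at 2 h, and 2.95, 3.27, 2.98 and 2.78 at 24 h. The rise was 3.15-fold (log2 fold change 1.03 ± 0.07, adjusted p = 2.75e-06), and in both genes the 3 groups did not overlap. Fanci shares exon sequence with Polg on the other strand.

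Fancg, a scaffold of the core complex that adds the ubiquitin mark, changed least in this role. It measured 2.27, 1.8, 1.82 and 2.02 RPKM in naive, 1.24, 0.869, 0.766 and 1.77 at 2 h, and 3.28, 3.51, 3.37 and 3.21 at 24 h. The 24 h values lay close together and above naive, and the 2 h values were spread more widely below it. The rise was 1.69-fold (log2 fold change 0.55 ± 0.12, adjusted p = 0.00316). Fanca and Fancb, further core complex members, rose 2.39-fold and 3.94-fold, Fancb from 14 to 26 reads per naive library. Fancm, the translocase that brings the complex to the fork, rose 2.53-fold, from 1.04 to 1.31 RPKM to 2.58 to 3.73.

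The 4 genes of break sensing and end resection rose by less and by similar amounts. Rad50, Mre11a and Nbn encode the complex that finds and tethers broken ends, and Rbbp8 encodes CtIP, its partner in trimming them. Rbbp8 measured 4.36, 4.47, 4.19 and 3.89 RPKM in naive, 4.43, 4.83, 5.08 and 4.0 at 2 h, and 6.4, 6.29, 6.26 and 7.55 at 24 h. Only the 24 h libraries stood apart (1.57-fold, log2 fold change 0.54 ± 0.07, adjusted p = 0.000114). Mre11a, the nuclease, measured 3.22, 3.35, 3.0 and 2.98 RPKM in naive, 2.3, 2.9, 2.6 and 2.02 at 2 h, and 4.34, 5.01, 5.05 and 5.3 at 24 h (1.57-fold, log2 fold change 0.52 ± 0.08, adjusted p = 0.000308).
Nbn, which recruits Atm to the complex, measured 8.12, 6.89, 7.42 and 7.18 RPKM in naive, 6.11, 5.53, 5.59 and 6.73 at 2 h, and 9.65, 11.1, 9.36 and 11.4 at 24 h (1.4-fold, log2 fold change 0.44 ± 0.08, adjusted p = 0.000776). Rad50, the tethering ATPase, measured 4.11, 4.88, 5.37 and 5.03 RPKM in naive, 2.72, 3.11, 3.4 and 3.43 at 2 h, and 6.4, 6.62, 7.14 and 6.67 at 24 h (1.38-fold, log2 fold change 0.40 ± 0.08, adjusted p = 0.00118). In all 3 genes of the complex the naive libraries lay between the 2 h and the 24 h libraries without overlap.

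Mismatch repair was split between a large rise of Exo1 and smaller rises of the recognition genes. Exo1 (chr1:175880581-175913489, plus strand), the exonuclease that removes the strand holding the error and that also resects breaks, measured 0.245, 0.309, 0.347 and 0.304 RPKM in naive, 0.173, 0.251, 0.182 and 0.195 at 2 h, and 1.62, 1.71, 1.6 and 1.95 at 24 h. These values rest on 25 to 35 reads per naive library and 205 to 261 at 24 h, where all libraries were above naive. The ratio was 5.71 (log2 fold change 1.06 ± 0.06, adjusted p = 4.8e-07). Msh6 (chr17:87975062-87990892, plus strand), which recognises single-base mismatches, measured 5.45, 6.08, 6.47 and 5.0 RPKM in naive, 4.25, 4.0, 3.94 and 5.32 at 2 h, and 11.7, 12.7, 12.7 and 14.7 at 24 h. Its 24 h libraries stood apart, 2.25-fold higher (log2 fold change 1.05 ± 0.10, adjusted p = 4.66e-06), and 2 h library 4 overlapped naive. A processed copy of Msh6, Gm11855, is 94.1% identical over 1872 bases and was listed at 0, 0 and 0.0123 RPKM in the group means.

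Msh3, which recognises longer loops, and Pms2, which nicks the strand to be removed, were below the filter. Msh3 ranged from 0.347 to 0.462 RPKM in naive, 0.287 to 0.403 at 2 h and 0.647 to 0.69 at 24 h, a ratio of 1.68 at 24 h. Pms2 ranged from 0.273 to 0.41 RPKM in naive, 0.334 to 0.442 at 2 h and 0.616 to 0.669 at 24 h, a ratio of 1.96. For both, exact permutation gave p = 0.0286 at 24 h against naive (adjusted p = 0.0429 over the 9 tests). Both had 51 to 94 reads per naive library, more than Exo1.

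Base excision genes divided into 2 that rose several-fold and 4 that changed by less than 2-fold. Neil3 (chr8:53586867-53639065, minus strand), a glycosylase for oxidised bases and crosslinks in single-stranded DNA, measured 1.57, 1.71, 1.83 and 1.44 RPKM in naive, 0.685, 0.585, 0.921 and 0.921 at 2 h, and 5.56, 5.35, 6.88 and 6.28 at 24 h. No groups overlapped, and the rise was 3.67-fold (log2 fold change 1.41 ± 0.09, SE, limma adjusted p = 2.6e-07). Ung, which removes uracil, measured 0.831, 0.8, 0.626 and 0.744 RPKM in naive, 0.442, 0.586, 0.465 and 0.685 at 2 h, and 2.85, 2.94, 3.37 and 3.72 at 24 h. It was 4.29-fold higher at 24 h (log2 fold change 1.27 ± 0.09, adjusted p = 2.33e-06), with naive and 2 h overlapping.

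The general enzymes of the same pathway moved less. Parp1, which signals strand breaks with ADP-ribose chains, measured 8.66, 8.94, 8.4 and 8.24 RPKM in naive, 7.11, 7.69, 7.14 and 7.38 at 2 h, and 14.4, 15.5, 13.8 and 13.9 at 24 h. All 3 groups were separate and tight (1.69-fold at 24 h, log2 fold change 0.69 ± 0.05, adjusted p = 5.66e-07). Xrcc1, the scaffold of single-strand break repair, rose 1.49-fold and Apex1, the endonuclease that cuts at a missing base, 1.32-fold. Apex1 shares 685 bases with Pip4p1, a neighbour at 5.79 to 7.06 RPKM in the group means. Lig3, the ligase bound to Xrcc1, measured 0.894, 0.967, 1.1 and 1.01 RPKM in naive, 0.911, 1.13, 1.1 and 0.921 at 2 h, and 1.13, 1.21, 1.21 and 1.08 at 24 h. Its 24 h libraries overlapped naive (1.17-fold, log2 fold change 0.11 ± 0.07, adjusted p = 0.207). Of the bases of Lig3, 1826 are shared with Rffl, which was at 2.36 to 3.61 RPKM in the group means.

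End joining genes had the lowest median ratio, and 2 of 4 rose. Xrcc6 (chr15:81987835-82040085, plus strand) and Xrcc5 encode Ku70 and Ku80, the ring that caps broken ends. Xrcc6 measured 2.4, 2.15, 2.44 and 2.04 RPKM in naive, 1.53, 1.67, 1.99 and 1.56 at 2 h, and 4.0, 4.34, 4.0 and 4.11 at 24 h (1.82-fold, log2 fold change 0.65 ± 0.07, adjusted p = 1.24e-05). Xrcc5 measured 15.8, 16.8, 16.6 and 16.0 RPKM in naive, 13.2, 15.4, 14.0 and 15.0 at 2 h, and 21.3, 18.9, 21.8 and 20.9 at 24 h (1.27-fold, log2 fold change 0.33 ± 0.06, adjusted p = 0.000815). In both genes every library at 24 h was above, and every library at 2 h below, those of naive. Xrcc6 shares 346 bases of exon with Desi1.

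Prkdc, the kinase that Ku recruits, and Lig4, the ligase that seals the ends, did not pass at 24 h. Prkdc measured 3.07, 3.11, 3.27 and 3.21 RPKM in naive, 2.63, 1.49, 1.57 and 2.59 at 2 h, and 3.28, 3.25, 3.3 and 4.02 at 24 h. Apart from 24 h library 4, the 24 h values lay at or just above the upper end of naive (1.09-fold, log2 fold change 0.10 ± 0.12, adjusted p = 0.553). Lig4 measured 1.04, 1.35, 1.28 and 0.706 RPKM in naive, 0.785, 1.16, 1.23 and 0.5 at 2 h, and 1.37, 1.49, 0.979 and 1.4 at 24 h, with overlap among all groups (1.2-fold, log2 fold change 0.15 ± 0.14, adjusted p = 0.442). Between 31 and 118 reads stood behind each Lig4 value in naive and at 24 h.

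In the checkpoint group 5 of 6 genes rose, with larger ratios for Clspn, Chek1, Timeless and Chek2 than for Atm and Atr. Clspn (chr4:126556935-126593903, plus strand), which encodes claspin, the adaptor through which Atr activates Chek1, measured 1.63, 1.4, 1.71 and 1.38 RPKM in naive, 0.954, 0.815, 1.0 and 1.19 at 2 h, and 6.72, 6.87, 8.92 and 9.22 at 24 h. The groups were separate and the rise was 5.18-fold (log2 fold change 1.81 ± 0.10, SE, limma adjusted p = 1.01e-07). Timeless, of the complex that steadies the fork, measured 0.409, 0.359, 0.402 and 0.353 RPKM in naive, 0.213, 0.177, 0.24 and 0.339 at 2 h, and 1.5, 1.67, 1.72 and 1.78 at 24 h (4.38-fold, log2 fold change 0.95 ± 0.06, adjusted p = 1.13e-06). Chek1, the kinase downstream of Atr, measured 0.378, 0.283, 0.39 and 0.2 RPKM in naive, 0.304, 0.276, 0.245 and 0.309 at 2 h, and 1.23, 1.59, 1.65 and 1.73 at 24 h (4.95-fold, log2 fold change 0.96 ± 0.07, adjusted p = 5.92e-06). Chek1 did not separate naive from 2 h, whereas Timeless was lower at 2 h in every library.

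Atr, the kinase of stalled forks, measured 0.992, 1.07, 1.27 and 0.983 RPKM in naive, 0.875, 0.835, 0.877 and 0.867 at 2 h, and 1.11, 1.21, 1.32 and 1.48 at 24 h. Naive overlapped 24 h (1.19-fold, log2 fold change 0.13 ± 0.07, adjusted p = 0.24). Atm, the kinase of double-strand breaks, rose 1.56-fold, from 2.68 to 3.44 RPKM to 4.26 to 5.42. Chek2, its effector kinase, measured 7.99, 8.59, 9.28 and 7.35 RPKM in naive, 5.71, 3.14, 3.11 and 6.94 at 2 h, and 19, 19.6, 17.7 and 16.7 at 24 h, and rose 2.2-fold (log2 fold change 1.05 ± 0.19, adjusted p = 0.000732). Its 2 h libraries split, with libraries 2 and 3 well below libraries 1 and 4.

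At 2 h the same genes tended to lie below naive. Of the 41 means 36 were below the naive mean and 5 above, with a median ratio of 0.732 against 0.966 in all genes tested. Of the 38 tested genes 22 fell, 0 rose and 16 did not pass, where 22.0% of all genes fell, 14.7% rose and 36.7% passed in either direction. In the fit with no filter 18 of 41 fell and 0 rose, against 9.56% and 7.45% of all genes. By the ratio of means the called genes furthest below naive were Rad54b at 0.413 (log2 fold change -0.33 ± 0.10, SE, limma adjusted p = 0.0228), Brip1 at 0.464 (-0.56 ± 0.07, adjusted p = 0.000221), Neil3 at 0.475 (-0.57 ± 0.09, adjusted p = 0.000675) and Bard1 at 0.556 (-0.41 ± 0.08, adjusted p = 0.00256). Chek2 was at 0.569 and had the largest change on the log2(RPKM + 1) scale (-0.76 ± 0.19, adjusted p = 0.0085).

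Every role held falls at 2 h. They comprised 5 of 9 tested homologous recombination genes (Brca1, Bard1, Brca2, Rad51ap1 and Rad54b), 5 of 7 Fanconi genes (Fanca, Fancd2, Fanci, Fancg and Brip1) and 3 of 4 genes of break sensing (Rad50, Mre11a and Nbn). Also lower were 1 of 2 tested mismatch genes (Msh6), 2 of 6 base excision genes (Neil3 and Parp1), 3 of 4 end joining genes (Xrcc5, Xrcc6 and Prkdc) and 3 of 6 checkpoint genes (Atm, Chek2 and Clspn). The 5 genes with a higher mean at 2 h were Xrcc3, Rbbp8, Pms2, Xrcc1 and Lig3, at ratios of 1.02 to 1.27, and none passed. Fewer of these falls than of the rises held under other settings. Leaving out a single library ended the call of 9 of the 22 genes (Brca2, Rad51ap1, Rad54b, Fanci, Mre11a, Nbn, Msh6, Xrcc5 and Clspn), and leaving out 2 h libraries 2 and 3 together ended that of 13. In the latter setting Apex1 was called as lower (log2 fold change -0.33, adjusted p = 0.0125), which made 10 falls in all. Without naive library 1, Xrcc3 passed as higher at 2 h (log2 fold change 0.37, adjusted p = 0.00775). Bard1, Fanca, Brip1, Rad50, Neil3, Parp1 and Chek2 fell under every alternative tried.

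**Figure D2:**
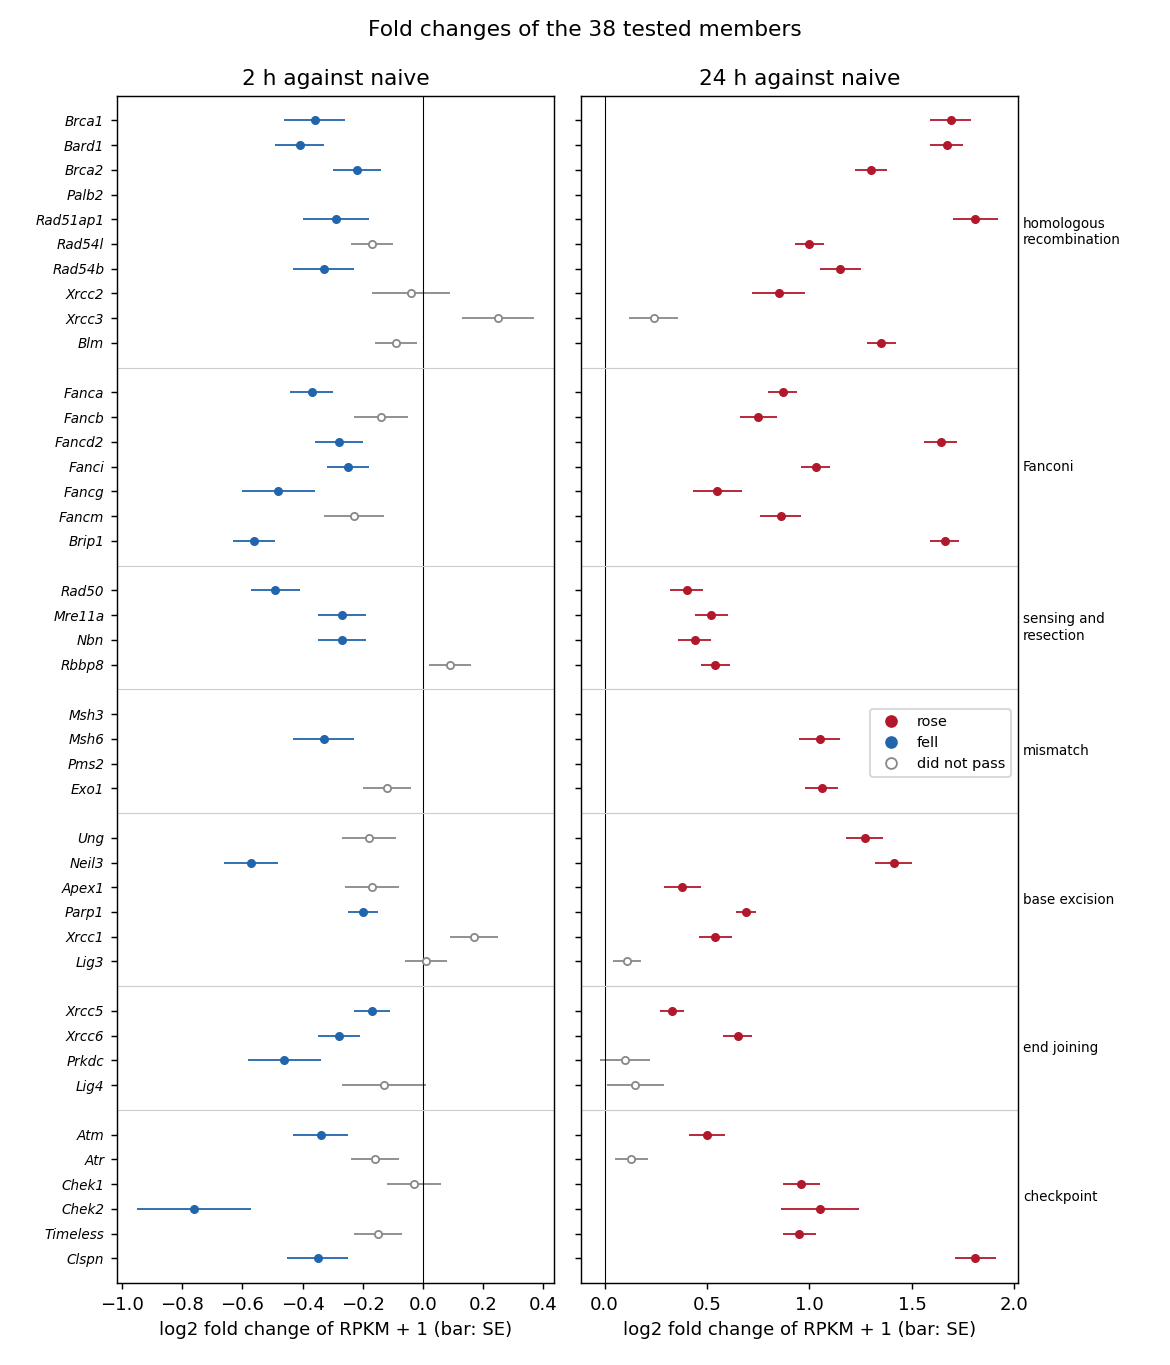
Log2 fold change of RPKM + 1 with its standard error in the filtered fit for the 38 tested genes, at 2 h against naive (left) and 24 h against naive (right), with filled red for a rise, filled blue for a fall and open grey for no call. The horizontal scales of the panels differ, and Palb2, Msh3 and Pms2, below the filter, have no point. The right panel holds 33 rises and the left 22 falls. Of the rises, 21 are in the 25 genes that passed the filter without the 24 h libraries.

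From 2 h to 24 h the change spanned the low and the high point of these genes. In the fit with no filter 38 of the 41 rose, where 14.7% of all genes rose, and 38 did not overlap, where 14.6% of all genes were higher in every library. In the filtered fit 35 of 38 rose and 0 fell, where 30.9% rose. Among the 25 genes that passed the filter without the 24 h libraries 22 rose. The ratio of means was at least 2 in 28 of the 41 genes and at least 4 in 17, with a median of 3.45 against 1.04 in all genes tested. Over those 25 genes the median was 2.16. The largest ratios were those of Rad54b (10.8), Brip1 (10), Rad51ap1 (9.21) and Fancd2 (9.17). Rad54b rested on 11 to 24 reads per 2 h library. Atr and Prkdc, which did not pass at 24 h against naive, rose 1.49-fold (adjusted p = 0.00983) and 1.67-fold (adjusted p = 0.00233) here, and both had all 2 h libraries below all naive libraries. Xrcc3, Lig3 and Lig4 did not pass, at ratios of 0.988, 1.14 and 1.43. This comparison shares its 24 h libraries with the first and its 2 h libraries with the second.

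For genes whose proteins work as pairs, the ratios between partners at 24 h and in naive did not overlap in 5 of 10 pairs, but no pair passed after adjustment. For 10 pairs, chosen with earlier results of these data known, the ratio of 2 partner genes was taken within each library. It was compared between groups by exact two-sided permutation, 20 tests in all, in which the smallest p is 0.0286. With 20 tests adjusted together, a pair with this p could pass only if many others also had it, whatever the size of its change. No conclusion is therefore drawn from the lack of a pass. The ratio of Brca1 to Bard1 was 0.814 to 1.1 in naive and 0.885 to 1.16 at 24 h (exact p = 0.743, adjusted p = 0.771). The ratio of Fancd2 to Fanci was 0.733 to 0.99 in naive and 1.54 to 1.69 at 24 h, 1.79-fold higher in 4 of 4 libraries (exact p = 0.0286, adjusted p = 0.114). The ratio of Xrcc5 to Xrcc6 was 6.6 to 7.85 in naive and 4.36 to 5.45 at 24 h, 0.695 of its naive level and lower in 4 of 4 libraries (exact p = 0.0286, adjusted p = 0.114). The ratio of Chek1 to Atr changed most, from 0.203 to 0.381 in naive to 1.11 to 1.31 at 24 h, 4.28-fold (exact p = 0.0286, adjusted p = 0.114).

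Msh6 to Msh3 went from 10.8 to 16.9 to 18 to 21.2 (1.33-fold) and Brca2 to Palb2 from 3.26 to 4.8 to 4.81 to 4.93 (1.17-fold), each with exact p = 0.0286 and adjusted p = 0.114. Chek2 to Atm was 2.5 to 3.16 in naive and 3.09 to 4.47 at 24 h, with overlap (exact p = 0.0571, adjusted p = 0.163). At 2 h the smallest exact p of a pair was 0.114. A ratio of 2 genes within a library does not depend on that library's scaling, but its level carries the unknown gene lengths and is read here only for its change.

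**Figure D3:**
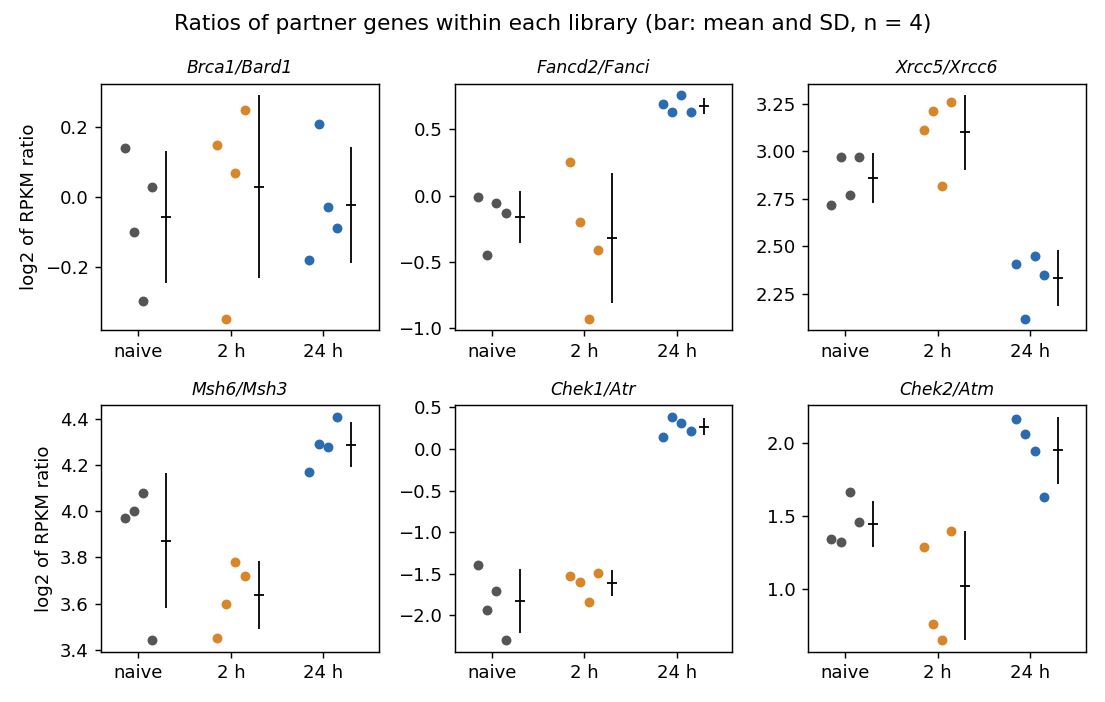
Log2 of the ratio of 2 partner genes in each library for 6 of the 10 pairs, with the mean and SD of each group (n = 4) beside the points. The ratio of Brca1 to Bard1 overlaps in all groups, that of Fancd2 to Fanci and of Chek1 to Atr is higher at 24 h, and that of Xrcc5 to Xrcc6 is lower at 24 h; the vertical axes differ and do not start at 0.

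Many repair genes start head to head with another gene on the opposite strand, within 1000 bases, so that a shared start region serves both. The ratio of member to neighbour within each library was compared between 24 h and naive by exact permutation for 15 pairs. In 11 pairs the ratio did not overlap between the groups (exact p = 0.0286, adjusted p = 0.039 over 15 tests), and in 10 of them the repair gene rose more. This adjusted p depends on how many pairs share the smallest exact p. Brca1 starts 194 bases from Nbr1, an autophagy receptor. Nbr1 measured 3.32, 3.53, 3.04 and 3.25 RPKM in naive and 2.38, 2.36, 2.28 and 2.19 at 24 h, 0.701 of naive, while Brca1 rose 4.98-fold. Fancd2 starts 30 bases from Emc3, of the complex that inserts membrane proteins. Emc3 measured 27.3, 26.9, 28.1 and 27.3 RPKM in naive and 34.6, 36.0, 35.6 and 33.7 at 24 h, 1.28-fold against the 5.64-fold of Fancd2.

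The same direction held for Rad51ap1 (5.8) with D6Wsu163e (1.38), Fancb (3.94) with Mospd2 (1.08), Palb2 (3.07) with Dctn5 (0.944) and Rad54l (2.47) with Pomgnt1 (0.979), given as ratios of mean RPKM at 24 h to naive. It held by less for Brip1 (4.64) with its antisense RNA Brip1os (2.0), Chek2 (2.2) with Hscb (1.28), Pms2 (1.96) with Aimp2 (1.53) and Mre11a (1.57) with Ankrd49 (1.27). The opposite was seen in 1 pair. Prkdc starts 466 bases from Mcm4, of the replicative helicase, and Mcm4 rose 3.21-fold against 1.09 for Prkdc. Xrcc3 with Zfyve21 (exact p = 0.229), Lig4 with Abhd13 (exact p = 0.229), Apex1 with Osgep (exact p = 0.0857) and Atm with Npat (exact p = 0.514) did not differ by the test. The gene bodies of Mre11a and Ankrd49 overlap, so their reads could be split between them.

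**Figure D4:**
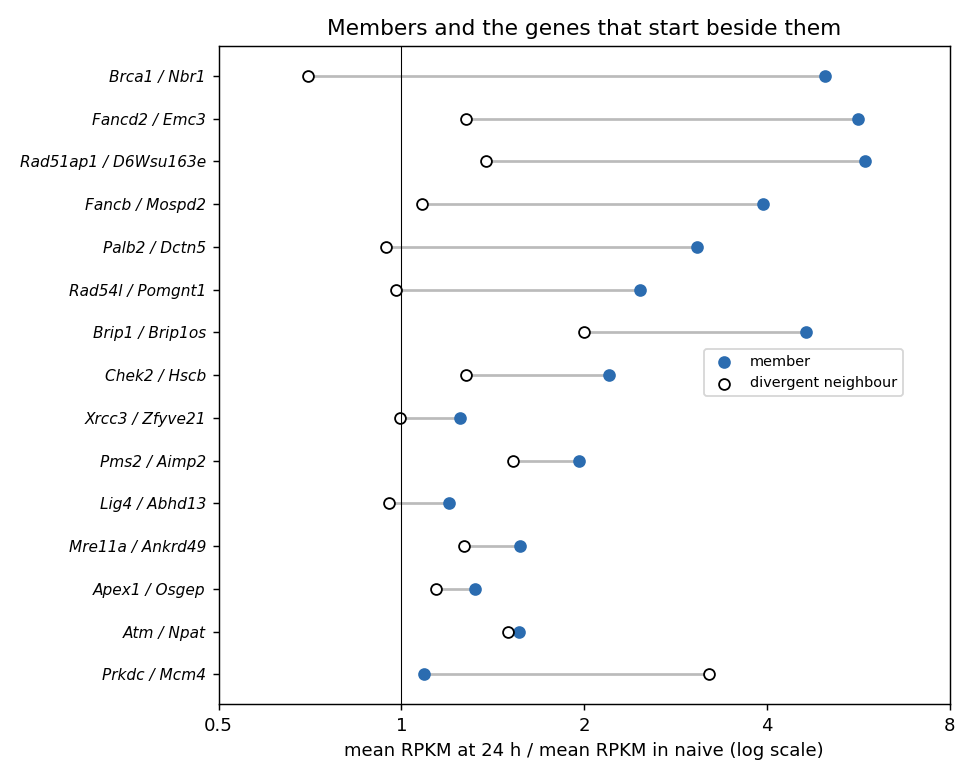
Ratio of mean RPKM at 24 h to that in naive on a log axis for 15 repair or checkpoint genes (filled blue) and the gene that starts head to head with each (open circles). Brca1 is at 4.98 and Nbr1 at 0.701, while in the pair of Prkdc with Mcm4 the neighbour is the higher.

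Further genes of these pathways were counted from lists. Of the 120 found among all genes, 102 were tested, some of which passed the filter only with the 24 h libraries. In the filtered fit 52 rose and 6 fell at 24 h, where 25.3% and 20.6% of all genes did. At 2 h 9 rose and 33 fell, where 14.7% and 22.0% of all genes did. In the fit with no filter 56 of the 120 rose and 5 fell at 24 h, where 11.7% and 9.59% of all genes did. By list, counted in the fit with no filter, where 11.7% of all genes rose and 9.59% fell, 17 of 28 further homologous recombination genes rose and 1 fell at 24 h, with a median ratio of 1.43. Fignl1, which acts with the recombinase, rose 4.2-fold (adjusted p = 1.04e-06 in the unfiltered fit) and Eme1, part of a nuclease for joint molecules, 2.73-fold (adjusted p = 4.53e-07). Of 13 further Fanconi genes 7 rose and 1 fell. Cenps, which anchors Fancm to DNA, rose 5.11-fold, Ube2t, which supplies the ubiquitin, 3.45-fold, and Usp1, which removes it, 2.2-fold.

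Among the remaining mismatch genes 3 of 4 rose, with ratios of at most 1.7. Of 18 further base excision genes 5 rose and 1 fell with a median ratio of 1.09, the glycosylase Tdg rose 1.56-fold (adjusted p = 0.00213), and Parp3, an enzyme of the Parp1 family, fell to 0.732 of naive. Of 8 further end joining genes 3 rose, with a median of 0.979, and Paxip1 and Rif1, which act on chromatin near breaks, rose 1.9-fold and 2.05-fold. Polq, below the filter, had the largest ratio of this list at 4.65 (limma adjusted p = 1.11e-06 in the unfiltered fit). Of 18 further checkpoint genes 11 rose and 0 fell. Topbp1, the activator of Atr, rose 2.91-fold (adjusted p = 1.36e-08), Wee1, the kinase that holds back mitosis, 3.21-fold, and Smc1a, a cohesin subunit, 1.51-fold. The median ratios of these lists, given with no test, were 1.65 in mismatch repair, 1.43 in homologous recombination, 1.42 in checkpoint and 1.4 in Fanconi genes. They were 1.09 in base excision and 0.979 in end joining, so mismatch repair, below those 3 roles among the members, was highest here.

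The 2-fold and larger ratios of the members lay within the range of the S phase genes listed here, as did some ratios under 2-fold. They lay below, within and above the narrower range of the mitosis genes. All 16 S phase genes of a list rose at 24 h, by a median ratio of 4.03 (1.51 to 5.98), and so did all 14 mitosis genes, by 4.64 (3.63 to 5.46), where 11.7% of all genes rose in the fit with no filter. Rrm1, of the enzyme that makes deoxynucleotides, rose 4.68-fold and Mcm3 of the replicative helicase 3.97-fold. Cdk1, the kinase that drives mitosis, rose 5.28-fold and Top2a, which untangles chromosomes, 4.95-fold. Exo1, Rad51ap1, Fancd2, Clspn, Brca1, Chek1, Bard1 and Brip1 lay between 4.64 and 5.8, beside these genes. Prkdc, Xrcc5, Lig3, Lig4, Xrcc3 and Atr lay at 1.09 to 1.27. At 2 h, 10 of 16 S phase genes and 8 of 14 mitosis genes fell in the fit with no filter and none rose, with median ratios of 0.713 and 0.714, near the 0.732 of the members.

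**Figure D5:**
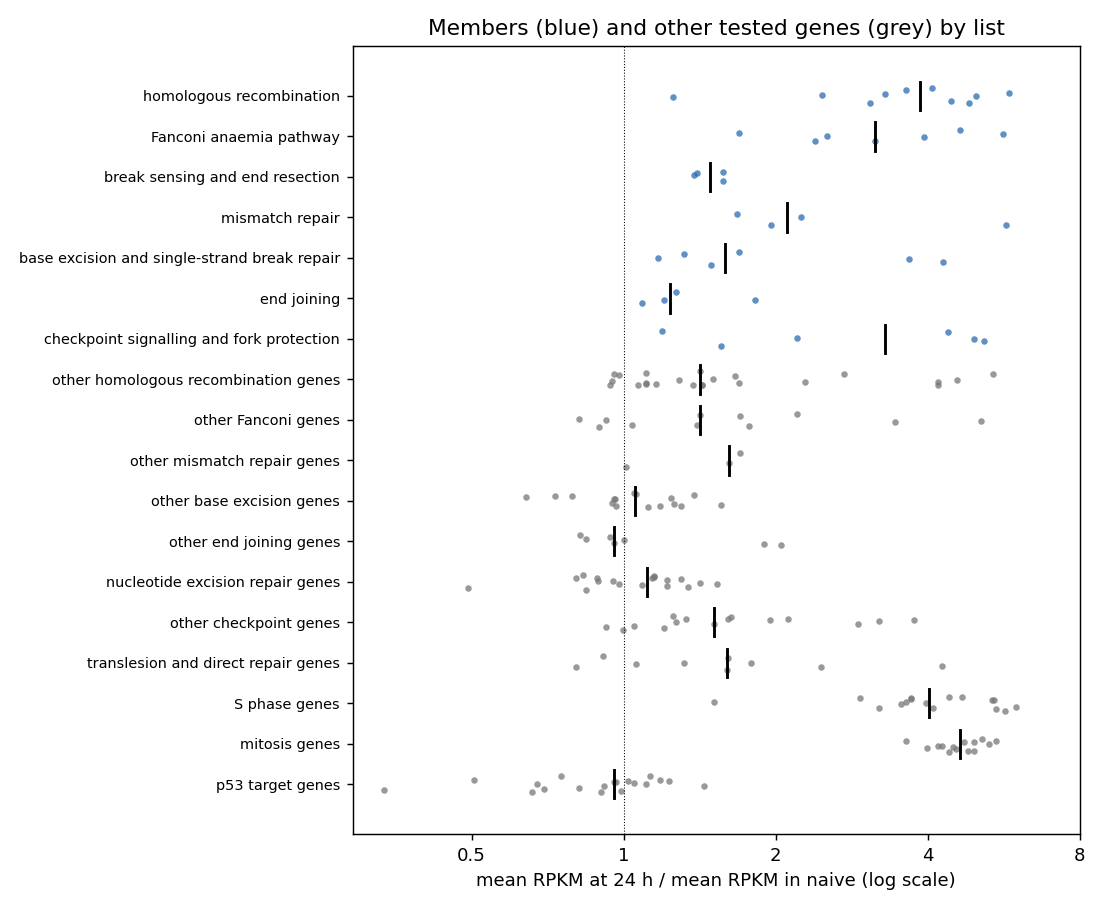
Ratio of mean RPKM at 24 h to naive on a log axis for the 41 members by role (blue) and for tested genes of other lists (grey), 1 point per gene, with a black bar at the median of each list. Homologous recombination, Fanconi and checkpoint members lie towards the S phase and mitosis lists, whose medians are 4.03 and 4.64, and the 4 end joining genes lie between 1.09 and 1.82.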

How the data were processed

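The authors deposited RPKM values per Ensembl gene, 1 column per library, which are normalised and not counts. The submitters' processing notes list build mm10 and the tools HTSeq, TopHat2 and bcl2fastq (versions, annotation and gene lengths: not given in the sources used here). Low values fell on whole multiples of a step, which gave integer read numbers (tolerance 0.02) for 11417 of 11419 tested genes. Genes with at least 1 RPKM in at least 4 libraries were tested with limma 3.58.1 (R 4.3.3) on log2(RPKM + 1), a pseudocount of 1, over all 12 libraries grouped by time point, with a variance trend, two-sided moderated tests and a Benjamini-Hochberg threshold of 0.05. The voom count model on the recovered reads was an alternative, besides other pseudocounts (0.1 and 0.5), filters, scalings and libraries left out. The steps were tested on simulated data. Positions came from GENCODE annotation of GRCm38, near-identical copies from BLAST 2.17.0 (at least 90% over 200 bases), and single ratios were tested by exact permutation (scipy 1.17.1). Of each role the 3 genes with the smallest p at 24 h and the gene with the largest are given in full, with Chek2 added after its values were seen, and at most 3 genes of each other list. Genes, lists and pairs were chosen with earlier results of these data known. Some further genes and 1 neighbouring pair are not reported here.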

Additional observations from a re-analysis of the deposited data

Results flagged for a closer look

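In 4 of 123 groups of 4 libraries (41 genes in 3 groups) 1 library stood apart by more than Dixon's critical value of 0.829 for the gap divided by the range, and chance gives this in about 1 group in 20. Rad54b in naive library 4 was at 0.315 RPKM, with the other naive libraries at 0.622 to 0.629 (gap over range 0.977). At 24 h, library 4 was the highest in the other cases. Rbbp8 was at 7.55 RPKM there against 6.26 to 6.4 in the others (0.896), Msh3 at 0.69 against 0.647 to 0.652 (0.882) and Prkdc at 4.02 against 3.25 to 3.3 (0.938). Of these genes, Rbbp8, Msh3 and Rad54b were higher at 24 h than in naive in every library. Prkdc overlapped naive through 24 h library 2 alone, at 3.25 RPKM against a naive maximum of 3.27.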

How the results depend on the processing

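The 33 rises at 24 h against naive and the 35 against 2 h were kept in each gene by all 22 planned and 2 added settings that gave it a value, and the falls at 2 h in 13 of 22 genes by the planned settings and in 7 by all. The 25 members that passed the filter without the 24 h libraries made up 21 of the 33 and 22 of the 35. The rest passed it only with the 24 h libraries. Over those 25 the main medians were 0.55 at 24 h against naive and 0.89 against 2 h. Leaving out 1 library gave 15 to 21 falls at 2 h (0 to 1 rise, Xrcc3 without naive library 1), 33 to 34 rises at 24 h and 35 against 2 h, with member medians of -0.25 to -0.22, 0.86 to 0.90 and 1.02 to 1.13. For other repair genes it gave 7 to 14 rises at 2 h and 3 to 6 falls at 24 h. A filter at 5 RPKM left fewer genes: 11 members fell at 2 h and 15 rose at 24 h against either group, and of other repair genes 4 rose and 15 fell at 2 h, and 27 rose and 2 fell at 24 h against either. Member medians (main values -0.24, 0.87 and 1.06) were -0.41, 1.23 and 1.69 with a pseudocount of 0.1, 1.08 and 1.34 at 24 h with 0.5, -0.48, 1.28 and 1.83 with voom on the recovered reads, -0.33, 1.05 and 1.38 over the fewer genes of the 5 RPKM filter, and 0.99 against 2 h with no filter. Median-ratio scaling and quantile normalisation gave 14 and 15 rises of other repair genes at 2 h and 11 and 12 falls from 2 h to 24 h (the cause was not tested). Voom called 25 members lower at 2 h and 33 higher at 24 h.

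Without 2 h libraries 2 and 3, a setting chosen after seeing the data, 10 members fell at 2 h (9 of the 22 and Apex1) and 5 other repair genes rose. Without 2 h libraries 1 and 4, also added, 18 members fell, 16 other repair genes rose at 2 h and the median from 2 h to 24 h was 1.14. The sign of log2 fold changes near 0 that had passed no test turned at 2 h for Xrcc2 (-0.15 to 0.03 over single libraries left out, 0.03 without naive library 2 or 3, 0.04 without 2 h libraries 1 and 4), Lig3 (-0.01 without naive library 1 or 2 h library 2, -0.0048 without 2 h library 3, -0.06 without 2 h libraries 2 and 3), Rbbp8 (-0.004 without 2 h libraries 2 and 3) and Lig4 (0.08 without 2 h libraries 1 and 4). Xrcc3 from 2 h to 24 h turned to 0.02, 0.01, 0.0039, 0.01 and 0.0023 without 2 h library 1 or 2, 24 h library 1 or 2, or 2 h libraries 2 and 3, within -0.05 to 0.02 over single libraries left out.

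Libraries with the same number in different groups did not deviate together (correlations -0.043 to 0.055 in 12 pairs, 2 of 12 libraries closest to their own number). Library 4 had the smallest total of each group, with 6112586 reads in naive, 7242824 at 2 h and 9129420 at 24 h. Whether the number stands for a shared batch or handling order was not tested. With the replicate number as a block 19 members fell at 2 h, 33 rose at 24 h and 35 from 2 h to 24 h. Depth limits the lowest genes, such as Xrcc2 with as few as 7 reads in a library.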

Other observations

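Further lists held genes of other responses to DNA damage. Of 20 nucleotide excision repair genes, which remove bulky lesions, 5 rose and 1 fell at 24 h in the fit with no filter, where 11.7% of all genes rose and 9.59% fell, with a median ratio of 1.15. Ddb1, the damage-binding adaptor, rose 1.42-fold (adjusted p = 1.22e-05 in the filtered fit), while Xpc, which recognises distorted DNA, fell to 0.492 of naive (adjusted p = 4.58e-05). Of 11 translesion and direct repair genes 5 rose and 1 fell. Rad18, the ligase that marks PCNA for lesion bypass, rose 4.27-fold, Polh, the polymerase that reads through ultraviolet damage, 2.46-fold, and Primpol, which restarts stalled forks, 1.61-fold.

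Of 20 genes that p53 is known to activate after damage, 2 rose and 3 fell at 24 h in the fit with no filter, with a median ratio of 0.962, shares near those over all genes. Ei24 rose 1.23-fold, and Fas and Rrm2b fell to 0.659 and 0.696 of naive. At 2 h, 5 rose and 4 fell in the same fit, where 7.45% and 9.56% of all genes did. The risers were Gadd45a (0.783 to 2.73 RPKM in the means, 3.48-fold, adjusted p = 0.00055), Pmaip1 (1.97-fold), Cdkn1a (1.95-fold), Aen (1.5-fold) and Mdm2 (1.46-fold), named after their values were seen, and Bbc3 fell to 0.432 of naive. At 24 h Cdkn1a was at 0.965 and Mdm2 at 0.958 of naive (adjusted p = 0.85 and 0.629). Several of these genes are known to respond to other signals as well.

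In the 2 h group, libraries 2 and 3 were both below libraries 1 and 4 in 13 of the 41 genes (31.7%), against 26.8% of all tested genes, and both above in 10 (24.4%), against 26.5%.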
